A study of Mus musculus with 18 samples.

Results

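The cytosolic ribosomal protein genes encode the proteins of the ribosome outside mitochondria. They were taken as all protein-coding genes with an Rps or Rpl symbol followed by a number, the stalk genes Rplp0, Rplp1 and Rplp2, and Rpsa. Pseudogenes, the Rps6k kinases, names ending in -ps and 1 further large-subunit gene were left out by the rule. This gave 85 genes of 49671 gene models in the files, 34 of the small and 51 of the large subunit by symbol. The rule lets in Rps19bp1, which encodes a binding partner of Rps19 and not a ribosomal protein, and leaves out some genes that do encode ribosome components under other names, such as Fau and Rack1. A filter on low counts left 82 members in the test, and Rpl3l, Rpl10l and Rps27rt were not tested.

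T cells, CD8+ or CD4+, were flow sorted for RNA sequencing after 12 days of tumor growth in B6 mice given B16f10-OVA, a melanoma line that expresses ovalbumin. Treated deficient mice carried floxed miR-155 (155 Flox) with CD4cre and were injected on days 3, 6 and 9 with checkpoint antibodies (anti-CTLA-4 together with anti-PD-1/PD-L1). Deficient mice carried the same alleles without antibodies, and floxed mice carried 155 Flox without the Cre. Each of these 3 groups had 3 libraries per cell type, 18 in all, and each library pooled cells of 2 to 3 tumors. The stated antibody solutions were 250 ul at 1, 1 and 0.4 mg/ml, without saying to which antibody or day each belongs. The floxed allele was shared by all groups, the CD4 promoter drives Cre in the T cell lineage at large, and no treated floxed mice were analysed here, so blockade was measured in deficient cells only. Differences are called "deletion" for deficient against floxed cells and "blockade" for treated deficient against deficient cells.

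Ribosomal protein genes are among the most actively transcribed genes of growing cells, and their products accumulate in matched amounts, because surplus unassembled protein is degraded. Many of their mRNAs begin with a C followed by a run of pyrimidines, the terminal oligopyrimidine motif, through which mTORC1 and the RNA-binding protein Larp1 adjust their translation and stability. In T cells, ribosome production increases when a naive cell is activated and begins to divide.

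Sequence around the annotated start is shown for members that followed the others most closely or carried a pyrimidine run. It is then shown for 3 of the members that departed from the rest in a deletion comparison, Rps3a1, Rpl13a and Rpl10. Each line gives 10 bases before and 20 after the RefSeq start in GRCm38.p6, 5′ to 3′ on the gene's strand. Capitals mark a C followed by at least 5 more pyrimidines between 2 bases before and 10 bases after the start. They run on through any pyrimidines that follow, so those of Rpl13a end beyond these 10 bases. The pyrimidine stretch of Rps9 begins further upstream and so is not in capitals.
Rps3 (chr7:99483690-99483719, minus strand): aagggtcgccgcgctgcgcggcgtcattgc
Rps9 (chr7:3704031-3704060, plus strand): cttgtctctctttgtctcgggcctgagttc
Rpl34 (chr3:130730379-130730408, minus strand): tccctgacgtaCTTCCTgtccggcgccgtc
Rplp2 (chr7:141447641-141447670, plus strand): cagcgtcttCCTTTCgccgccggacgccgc
Rps24 (chr14:24490668-24490697, plus strand): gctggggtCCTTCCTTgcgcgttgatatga
Rps27 (chr3:90213629-90213658, minus strand): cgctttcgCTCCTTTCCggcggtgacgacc
Rps3a1 (chr3:86142649-86142678, minus strand): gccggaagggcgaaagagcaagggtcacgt
Rpl13a (chr7:45128726-45128755, minus strand): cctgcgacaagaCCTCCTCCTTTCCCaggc
Rpl10 (chrX:74270806-74270835, plus strand): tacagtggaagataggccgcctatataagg

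RefSeq start windows were found for 66 of the 85 members. These starts are annotated and were not mapped in these cells, so a run that begins outside the searched bases is missed. The shares and the medians by run below depend on them, and a member without a counted run may still carry the motif. A C with at least 5 further pyrimidines on the gene's strand, lying within 2 bases before to 10 bases after the start, was present in 25 of the 66 members (37.9%), against 8.97% of 27025 genes with such a window. The motif CCGGAAG, searched on both strands over 300 bases from 250 before to 50 after the start, was present in 26 members (39.4%), against 9.93% of all genes. TATAAA was found in 7 members (10.6%), against 15.7% of all genes, on either strand of the same 300 bases. Read on the other strand, CCGGAAG contains CTTCC and so can overlap a pyrimidine run. Members with the pyrimidine run at the start had a median log2 fold change of 0.23 in the CD8 deletion (24 tested), and those without it 0.33 (39 tested). The CD4 deletion medians were 0.17 with the run and 0.04 without it. Rpl13a, which departed from the other members, carried a run of 14 pyrimidines, and Rps3, which stayed closest to them, had none at the annotated start.

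The libraries held 3198435 to 11645432 counts, of which 0.808 to 4.68% fell on ribosomal RNA-like models in 16 libraries, 25.3% in treated CD8 replicate 2 and 11.2% in deficient CD4 replicate 3. Mir155hg, the host transcript of miR-155, averaged 1.01 ± 0.840 CPM in deficient and 16.3 ± 6.26 CPM in floxed CD8 cells (SD, n = 3 each). It averaged 0.405 ± 0.353 CPM in deficient and 6.61 ± 1.68 CPM in floxed CD4 cells. CPM values are counts scaled to a common library size on the TMM scale, which corrects for composition. Cd8a, the co-receptor of CD8 cells, averaged 681 to 1305 CPM over the CD8 groups and 0.226 to 102 CPM over the CD4 groups, with floxed CD4 cells at the high end. Cd4 averaged 379 to 954 CPM over the CD4 groups and 1.44 to 1.83 CPM over the CD8 groups. Floxed CD8 replicate 1 stood apart among the members: its share of counts on them was 1.57%, against 2.07 and 2.11% in the other floxed CD8 libraries. Its 4.68% on ribosomal RNA-like models was above that of the other CD8 libraries except treated replicate 2. In these bulk samples a change in the mix of cells and a change in RNA per cell cannot be told apart.

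The deposited transcript levels of the members were uneven, over several orders of magnitude. Over all libraries the members took 2423802 counts, of which 44.8% fell on the 6 leading members, Rps3 and Rpl8 among them. Per kilobase of exon, the highest mean levels were those of Rplp1 (1898 CPM per kb), an acidic protein of the stalk that recruits elongation factors, and Rpl8 (1687 CPM per kb). Rpl4 reached 843 CPM per kb, and Rplp0, the base of the stalk, 663 CPM per kb. At the low end, Rps16, a core protein of the small subunit, had 120 counts in all 18 libraries and 0.663 CPM per kb, and Rpl23a 216 counts and 1.87 CPM per kb. The tissue-restricted Rpl3l, known from striated muscle, and Rpl10l, known from testis, were at 0.105 and 0.136 CPM per kb, and Rps27rt at 0.215.

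Ribosomal protein genes have many processed pseudogenes, and the counting command in the file headers sets no option to count reads that match several places or several genes, which featureCounts then leaves out. Of the 85 members, 81 shared at least 1 stretch of 50 bases with transcripts of another annotated gene. The shared share of a member's 50-base windows reached 95.1%, in Rpl35. The 29 members over 50% shared had a median level of 22.3 CPM per kb, the 45 members between 10 and 50% had 59.6 CPM per kb, and the 11 members at or under 10% had 84.6 CPM per kb. Across the 85 genes Spearman's rho between the shared percentage and the level per kb was -0.34. Without 5 genes of restricted expression or other function it was -0.47 over 80 genes. Genes are not independent replicates, and all values come from the same libraries. What part shared sequence has in these levels was not tested. The counts of pseudogene models with these symbols summed to 0.0106 to 0.0182% of a library. Sharing models under other names are outside this sum, such as Gm11478, with 2112 counts beside 8913 for Rpl13a.

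**Figure D1:**
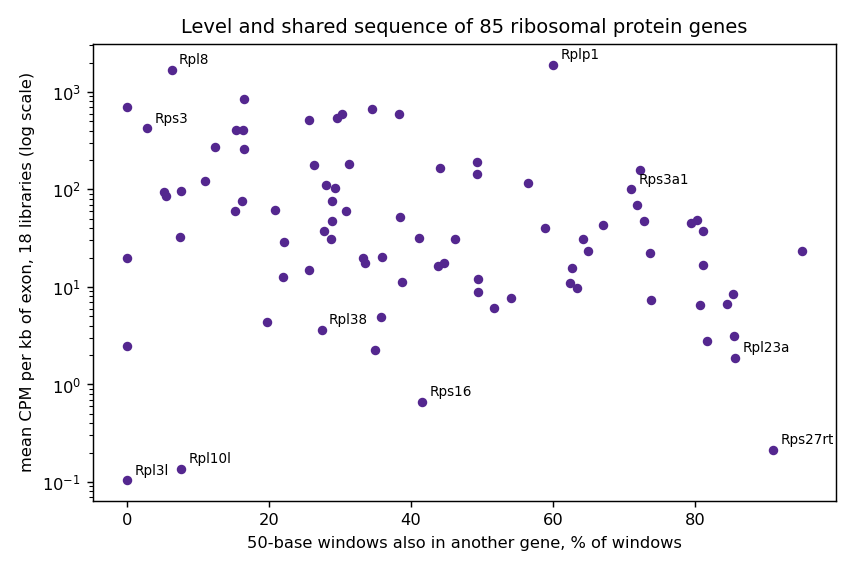
Mean level of each of the 85 members over 18 libraries (vertical, CPM per kb of exon, log scale) against the percentage of its 50-base windows found in another gene's transcripts (horizontal). The 29 members over 50% shared have a median of 22.3 CPM per kb and the 11 at or under 10% a median of 84.6, with Rplp1 and Rpl8 at the top and Rpl3l at the bottom.

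As a set, the members took a larger part of the transcriptome in deficient than in floxed cells, in both cell types. Of counts outside ribosomal RNA-like models, they held 2.80, 2.47 and 2.39% in the deficient CD8 libraries, against 1.57, 2.07 and 2.11% in the floxed ones. In CD4 cells they held 1.92, 1.80 and 2.01% in the deficient libraries, against 1.63, 1.39 and 1.41% in the floxed ones. The groups did not overlap in either cell type. Treated deficient CD8 libraries held 2.10, 2.25 and 2.10%, all under the deficient ones, and treated deficient CD4 libraries held 1.67, 1.54 and 1.59%, also all under theirs. Group means were 2.15 ± 0.0867% in treated deficient, 2.55 ± 0.215% in deficient and 1.91 ± 0.301% in floxed CD8 cells (SD, n = 3 each). For the CD4 libraries they were 1.599 ± 0.0646% in treated deficient, 1.91 ± 0.105% in deficient and 1.48 ± 0.135% in floxed mice. The order was the same for both subunits: small-subunit genes held 0.960% in treated deficient, 1.16% in deficient and 0.859% in floxed CD8 cells, and large-subunit genes 1.19, 1.39 and 1.06%. The share on mitochondrial ribosomal protein genes moved less, at 0.334, 0.333 and 0.338% in the same CD8 groups. In the CD4 groups it was 0.267, 0.298 and 0.276%, highest in deficient cells as for the members. There the deficient libraries (0.280 to 0.316%) all stood above the treated deficient ones (0.255 to 0.273%) but overlapped the floxed ones (0.258 to 0.293%). Since the genes were chosen with results of these data known, no test is given for the share.

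**Figure D2:**
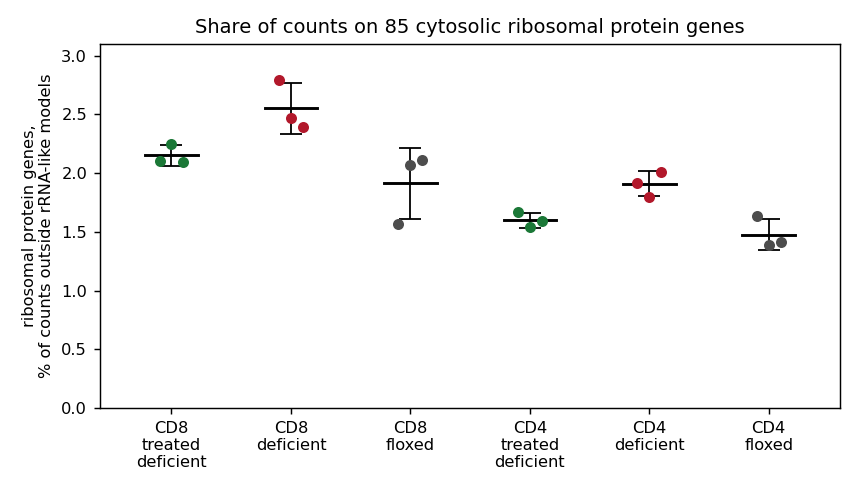
Percentage of counts outside ribosomal RNA-like models that fell on the 85 members (vertical) in each of the 18 libraries, by group. Points are libraries, horizontal lines are group means and bars are SD over 3 libraries. Deficient libraries sit at 2.39 to 2.80% in CD8 and 1.80 to 2.01% in CD4 cells, above the floxed and the treated deficient libraries of the same cell type.

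Deletion of miR-155 in CD8 cells went with higher ribosomal protein transcripts of both subunits. In the quasi-likelihood test of edgeR, with p-values adjusted after Benjamini and Hochberg over 14080 genes, 24 of the 82 members rose and 1 fell at an adjusted p under 0.05 (a call). Over all genes 19.3% were called in either direction, 9.65% higher and 9.61% lower. The median log2 fold change was 0.34 over the members (quartiles 0.13 and 0.52) and -0.01 over all genes, and 73 members were above 0. By subunit, 13 rose and 1 fell of 33 small-subunit genes and 11 rose of 49 large-subunit genes. The counts of called members moved with single libraries: 14 were called without floxed CD8 replicate 1 and 11 without deficient CD8 replicate 1, while the median stayed between 0.24 and 0.42 over 17 alternatives. In 37 members all deficient libraries stood above all floxed ones, and in 1 member below them. Such separation upward was found for 17.8% of all genes and downward for 16.4%.

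The member nearest to the common pattern was Rps3, a small-subunit protein that also has a role in DNA repair. It stood at 2573, 2163 and 2161 CPM in deficient CD8 libraries, against 1529, 1972 and 1943 CPM in floxed ones. The deficient libraries were all higher, and the log2 fold change was 0.34 ± 0.12 (SE, adjusted p = 0.0442, edgeR). Rps9 (0.38 ± 0.11) and Rpl34 (0.34 ± 0.12), the next nearest, rose as well.

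The largest rise among called members was that of the stalk gene Rplp1. Deficient CD8 libraries held 1326, 1273 and 1178 CPM of it, against 638, 795 and 887 CPM in floxed ones. The groups were well apart, and the log2 fold change was 0.70 ± 0.13 (adjusted p = 0.000733, edgeR). The other stalk genes Rplp2 (0.41 ± 0.15, adjusted p = 0.0599) and Rplp0 (0.27 ± 0.12, adjusted p = 0.141) were not called. Next came Rpl30 (0.69 ± 0.17), a large-subunit protein, and the small-subunit genes Rps21 (0.69 ± 0.17) and Rps28 (0.66 ± 0.19). Rps24, mutated in some human patients with Diamond-Blackfan anemia, was at 543, 496 and 433 CPM in deficient and 285, 352 and 333 CPM in floxed CD8 libraries (0.60 ± 0.13, adjusted p = 0.0024, edgeR). Rps27a, a fusion of ubiquitin and a ribosomal protein, had a log2 fold change of 0.39 ± 0.22. Rpl5 and Rpl11, which bind 5S ribosomal RNA and in free form hold back Mdm2, were at 0.43 ± 0.18 and 0.23 ± 0.25, and neither was called. Rps6, the substrate of S6 kinases, was at 0.02 ± 0.28 and Rpsa, also known as the laminin receptor, at -0.01 ± 0.17.

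In CD4 cells the deletion moved the members in the same direction by a smaller median. Of 82 members 4 rose and 1 fell by edgeR's quasi-likelihood test, where 11.7% of all genes were called, 4.61% higher and 7.06% lower. The 4.88% of members called higher was thus near the background, and the 6.1% called in either direction was below it. The median log2 fold change was 0.16 over the members and 0.01 over all genes, with 56 members above 0. The 4 that rose were also called in CD8 cells: Rps14 (0.40 ± 0.12), Rps15 (0.40 ± 0.12), Rps19 (0.36 ± 0.11) and Rpl8 (0.35 ± 0.11). Rps14 and Rps19 are small-subunit genes whose human counterparts are deficient in 5q- syndrome and in Diamond-Blackfan anemia, and Rps15 and Rpl8 are core proteins of the small and the large subunit. Rps19 stood at 256, 264 and 303 CPM in deficient and 239.6, 205 and 194 CPM in floxed CD4 libraries, which did not overlap. In all, 14 members were separated upward and 3 downward, beside 13.2 and 14.7% of all genes. The 3 separated downward were Rps3a1, Rpl10 and Rps29. The count of 5 calls became 1 without floxed CD4 replicate 3 or deficient CD4 replicate 3, and 2 without floxed replicate 2 or deficient replicate 1 or 2. With upper quartile scaling it was 12, and the median stayed above 0 in all 17 alternatives (0.06 to 0.25).

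The size of the deletion effect differed between CD8 and CD4 cells for 2 of 82 members, Rpl10 and Rps29, by the interaction contrast of the same fit, where 11.6% of all genes were called. Over the members the median difference, CD8 minus CD4, was 0.24 on the log2 scale, and it was -0.04 over all genes. For the remaining 80 members the difference was not called. The fit takes CD8 and CD4 libraries as independent, and whether they came from the same tumors is not stated. Rps29, on 7 to 42 counts per library, was called in 8 of 23 alternatives, and its call was lost without any 1 library of these groups other than floxed CD8 replicate 3 and floxed CD4 replicate 2.

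**Figure D3:**
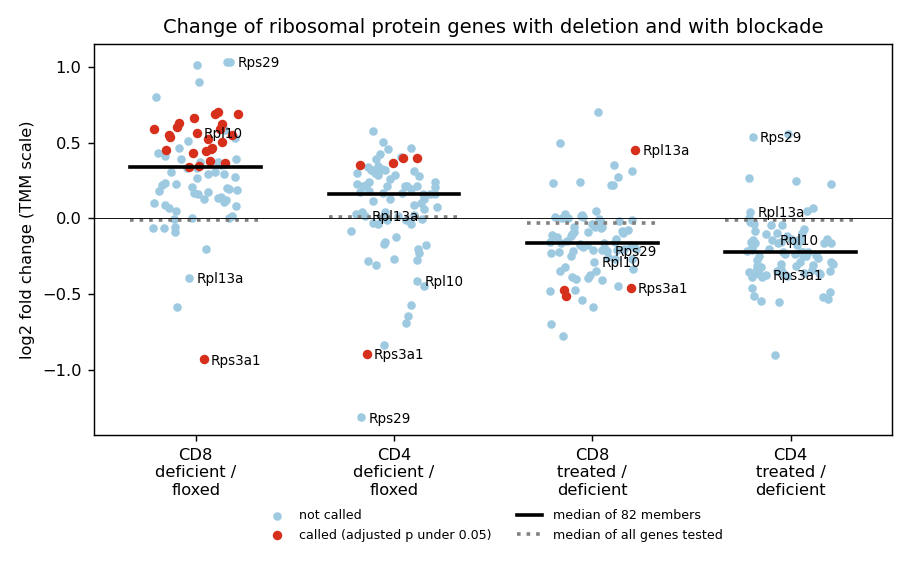
Log2 fold change on the TMM scale (vertical) of the 82 tested members in deficient against floxed and treated deficient against deficient cells, by cell type. Points are members, red where called at an adjusted p under 0.05. Solid lines mark the members' median (0.34, 0.16, -0.16 and -0.22) and dotted lines the median of all genes tested. Rps3a1 is called below 0 in both deletion comparisons, and sideways spread has no meaning.

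Rps3a1, which encodes the small-subunit protein known in humans as RPS3A, went against the set. It is on chromosome 3 (86137940 to 86142702, minus strand, GRCm38, as in the files). Deficient CD8 libraries held 104, 101 and 81.9 CPM of it, against 179.6, 192 and 175 CPM in floxed ones. In CD4 cells it stood at 70.5, 58.9 and 73.8 CPM in deficient and 134, 115 and 128 CPM in floxed libraries. The groups were far apart in both cell types. It fell by 0.93 ± 0.13 on the log2 scale in CD8 cells (adjusted p = 4.2e-05, edgeR) and by 0.90 ± 0.13 in CD4 cells (adjusted p = 0.00018), and both calls held in all 17 alternatives of each. The difference between the cell types, CD8 minus CD4, was -0.03 ± 0.18 and was not called.

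With blockade Rps3a1 was lower still, at 72.7, 64.6 and 71.1 CPM in treated deficient CD8 libraries, all under the deficient ones. The log2 fold change was -0.46 ± 0.13 (adjusted p = 0.0197, edgeR), which was not called without deficient CD8 replicate 1 or 2 or treated CD8 replicate 2 or 3. In treated deficient CD4 cells it stood at 53.7, 45.8 and 56.1 CPM (-0.37 ± 0.13, adjusted p = 0.271). Treated deficient against floxed cells it fell by 1.39 ± 0.13 in CD8 and by 1.27 ± 0.13 in CD4 cells. Of its 50-base windows 71.0% were found in other genes. The 9 gene models in the files that share such windows took 548 counts over 18 libraries, against 12820 for Rps3a1 itself. Of 33 other genes tested within 2 Mb, 3 were called higher and 4 lower in the CD8 deletion, with a median of 0.06. A cause of its fall was not tested.

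Departures from the set were also measured on a scale where the members' summed counts are fixed, so that a value is relative to the set as a whole. A member departed at an adjusted p under 0.05 with a log2 difference of at least 0.5. This scale centers the members near 0 by construction, but not the other genes. The shares of all genes that departed, here and below, are therefore not a like background for the members. In the CD8 deletion 2 members departed, both lower, Rps3a1 (-1.29 ± 0.14) and Rpl13a (-0.73 ± 0.14), where 29.1% of all genes did and 24% departed downward. In the CD4 deletion 4 departed, all lower, Rps3a1 (-1.14 ± 0.14), Rpl10 (-0.64 ± 0.16), Rps29 (-1.54 ± 0.50) and Rps27l (-0.56 ± 0.18), where 13.8% of all genes did and 11.3% departed downward. With blockade in CD8 cells Rpl13a departed upward (0.58 ± 0.14), where 12.6% of all genes departed. The 6 leading genes hold 44.8% of the summed counts and so weigh most on this scale.

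Rpl10, an X-linked gene whose product joins the large subunit late in its maturation, had deletion values of opposite sign in CD8 and CD4 cells. In CD8 cells it stood at 60.0, 55.3 and 59.5 CPM in deficient and 40.3, 41.9 and 35.8 CPM in floxed libraries, a rise of 0.56 ± 0.14 (adjusted p = 0.00696, edgeR). Deficient CD4 libraries stood at 40.3, 40.8 and 39.0 CPM, against 62.8, 49.1 and 47.8 CPM in floxed CD4 libraries. The groups did not overlap in either cell type. The CD4 change was -0.41 ± 0.14 (adjusted p = 0.0621) on the TMM scale, and treated deficient CD4 cells were lower than floxed ones by a called -0.55 ± 0.14. The difference between the deletion effects was 0.97 ± 0.20 (adjusted p = 0.00234, edgeR) and was called in all 23 alternatives. Of its windows 73.7% were shared with other genes, whose models took 547 counts in all, against 5990 for Rpl10.

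Rpl13a, a large-subunit protein that in macrophages is also released from the ribosome to silence inflammatory mRNAs, was lowest among CD8 groups in deficient cells. Treated deficient CD8 libraries held 87.9, 84.0 and 85.8 CPM, deficient ones 66.8, 66.0 and 55.8 CPM, and floxed ones 64.4, 87.1 and 96.5 CPM. Floxed replicate 1 lay within the range of the deficient libraries. The deletion gave -0.39 ± 0.15 (adjusted p = 0.0635) on the TMM scale, and blockade 0.45 ± 0.15 (adjusted p = 0.0444, edgeR). The blockade call was lost in 13 of 17 alternatives, among them each of the 6 fits without 1 treated or deficient CD8 library. CD4 groups averaged 58.2, 57.0 and 56.0 CPM in treated deficient, deficient and floxed cells. Other genes' exons on the same strand cover 35.4% of its exon bases, and reads there are left out of the count of either gene.

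**Figure D4:**
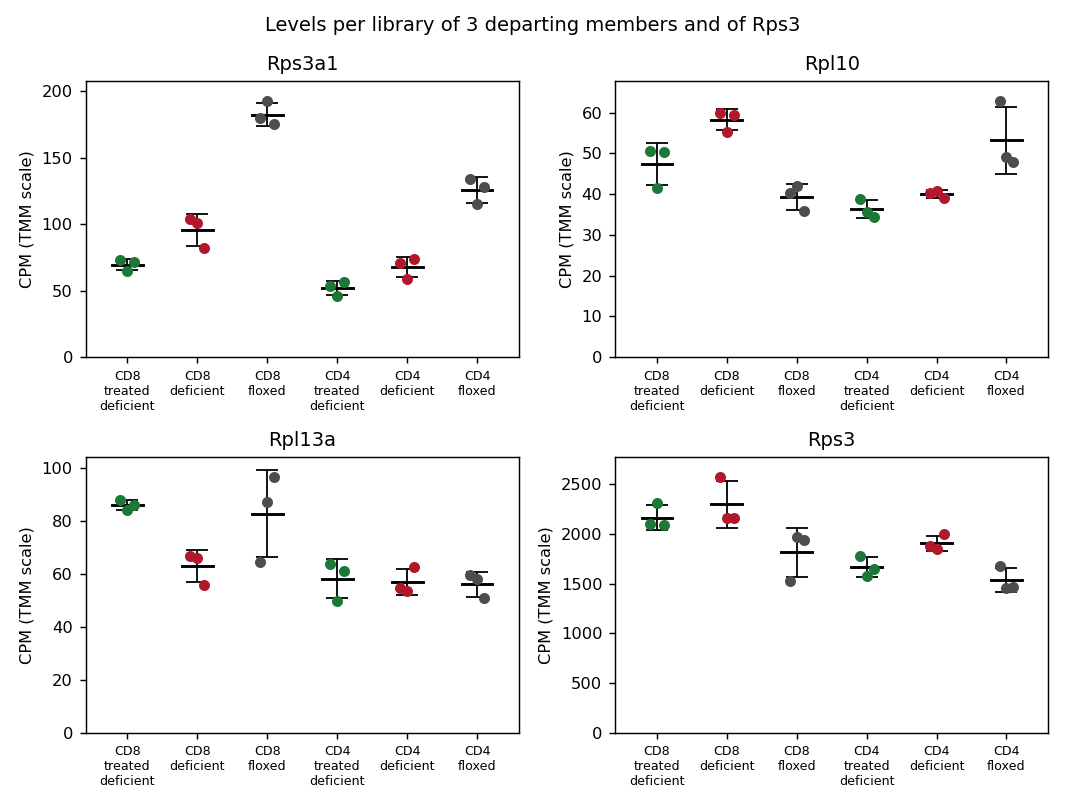
CPM on the TMM scale (vertical, from 0) of Rps3a1, Rpl10, Rpl13a and Rps3 in each library, by group. Points are libraries, horizontal lines are means and bars are SD over 3 libraries. Rps3a1 is at 81.9 to 104 CPM in deficient and 175 to 192 CPM in floxed CD8 cells, while Rps3 is higher in deficient than in floxed libraries.

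Blockade in deficient cells went with a lower median of the members in both cell types, and with few calls. Deletion and blockade comparisons share the deficient libraries, so a high value there moves both in opposite directions. In CD8 cells 1 member rose and 3 fell, where 13.8% of all genes were called, 8.25% higher and 5.53% lower, with a median log2 fold change of -0.16 over members and -0.03 over all genes. The falls were Rps24 (-0.47 ± 0.13, adjusted p = 0.0164, edgeR), Rps3a1 and Rpl13 (-0.51 ± 0.17, adjusted p = 0.0447), a large-subunit gene. Rps24 stood at 346, 384 and 331 CPM in treated deficient libraries, against the 433 to 543 CPM of deficient ones. All treated libraries stood below all deficient ones for 25 members and above them for 2, Rpl13a and Rps27l, beside 22.1 and 22% of all genes. Without deficient CD8 replicate 1 or treated CD8 replicate 3, 0 members were called, and without any other single library of the 2 groups 1 to 3 were.

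In CD4 cells 0 of 82 members were called with blockade by edgeR's quasi-likelihood test, where 0.142% of all genes were. DESeq2 and limma voom also called 0. An unadjusted edgeR p under 0.05 was found for 20 of the 82 members, beside 11.3% of all genes. The median log2 fold change was -0.22 over the members and -0.01 over all genes, 73 members were below 0, and the median lay between -0.25 and -0.16 over 17 alternatives. In 35 members all treated libraries were below all deficient ones, beside 9.9% of all genes, and in 1, Rps29, above them, beside 10.1%. Rps3 was at 1776, 1579.8 and 1650.4 CPM in treated deficient and 1875, 1852 and 1996 CPM in deficient CD4 libraries (-0.19 ± 0.12, adjusted p = 0.552). Rps14 averaged 522 ± 48.4 CPM in treated deficient and 685 ± 36.4 CPM in deficient CD4 cells (-0.39 ± 0.12, adjusted p = 0.195). The blockade effect differed between the cell types for 0 members by edgeR, DESeq2 and limma voom, with 0 at an unadjusted edgeR p under 0.05. Over all genes 0.803% were called and 12.2% had such an unadjusted p.

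Treated deficient cells were also set against floxed cells, a contrast that joins deletion and blockade and shares libraries with both. In CD8 cells the median member was at 0.19 in treated deficient against floxed cells, where 5.01% of all genes were called, with Rpl15 (0.75 ± 0.19) and Rpl37 (0.46 ± 0.13), both of the large subunit, higher and Rps3a1 lower. Without floxed CD8 replicate 2 the calls numbered 8, and without any other single library of these groups 1. In CD4 cells the median was -0.11, where 12.2% of all genes were called, and Rps3a1 and Rpl10 were the 2 calls, both lower. The mean share of counts went the other way, at 1.599% in treated deficient and 1.48% in floxed CD4 cells, with overlapping libraries. Without treated CD4 replicate 3 there was 1 call.

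Ribosomal protein transcripts were higher in CD8 than in CD4 cells in treated deficient and in deficient mice, while in floxed mice the count of higher members was near that of all genes. In treated deficient mice 37 of 82 members were higher in CD8 cells and 0 lower by edgeR's quasi-likelihood test, where 20.4% of all genes were called and 9.36% were called higher. The median log2 ratio was 0.45 over the members and -0.01 over all genes, and in 65 members all CD8 libraries stood above all CD4 ones, beside 21.1% of all genes. In deficient mice 19 were higher and 0 lower, where 15.6% of all genes were called and 6.21% were higher, with a median of 0.35. In floxed mice 14 were higher and 1 lower, where 39.1% of all genes were called and 18.9% were higher, so that the 17.1% of members called higher did not exceed the background. The floxed median was 0.19 over the members and 0.04 over all genes. All floxed CD8 libraries stood above all floxed CD4 ones in 19 members and below them in 2, beside 20.8 and 22.1% of all genes. The shares of counts on the members overlapped there, with 1.57% in floxed CD8 replicate 1 against 1.63% in floxed CD4 replicate 1. The fit takes CD8 and CD4 libraries as independent, though they may come from the same tumors. These counts of higher members moved with single libraries. The treated count was 22 without treated CD8 replicate 1 or 2, and the deficient count 7 without deficient CD8 replicate 1, 6 without deficient CD4 replicate 2 and 12 without deficient CD4 replicate 1. The floxed count was 24 without floxed CD8 replicate 1 and 8 without floxed CD8 replicate 3.

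Rpl12, at the base of the stalk, showed the difference in all 3 states. It stood at 45.5, 57.9 and 54.0 CPM in treated deficient CD8 cells, against 28.5, 23.8 and 31.0 CPM in treated deficient CD4 cells. Floxed mice had 44.5, 53.4 and 48.6 CPM of it in CD8 cells, against 38.0, 33.5 and 34.3 CPM in CD4 cells. The cell types did not overlap in either state. The log2 ratios were 0.90 ± 0.15, 0.72 ± 0.15 and 0.47 ± 0.15 in treated deficient, deficient and floxed mice, all called. Rpl4, a large-subunit protein, was higher by 0.59 ± 0.11, 0.44 ± 0.10 and 0.54 ± 0.11 in the same 3 states. The largest ratio, 2.12 ± 0.74 for Rpl23a in treated deficient mice, rests on 4 to 31 counts in CD8 and 0 to 11 counts in CD4 libraries. In floxed mice 9 members departed from the set, where 33.3% of all genes did, and among those lower in CD8 cells were Rpl22l1, Rpl37a, Rps25, Rpl36al, Rps27l, Rpl15, Rpl10 and Rps29. Rpl10 was the member called lower on the TMM scale (-0.43 ± 0.14), and in deficient mice it was higher (0.54 ± 0.14). In treated deficient mice only Rps27 departed (-0.57 ± 0.17), where 26.6% of all genes did, and in deficient mice 0 members did, where 21.9% of all genes did.

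**Figure D5:**
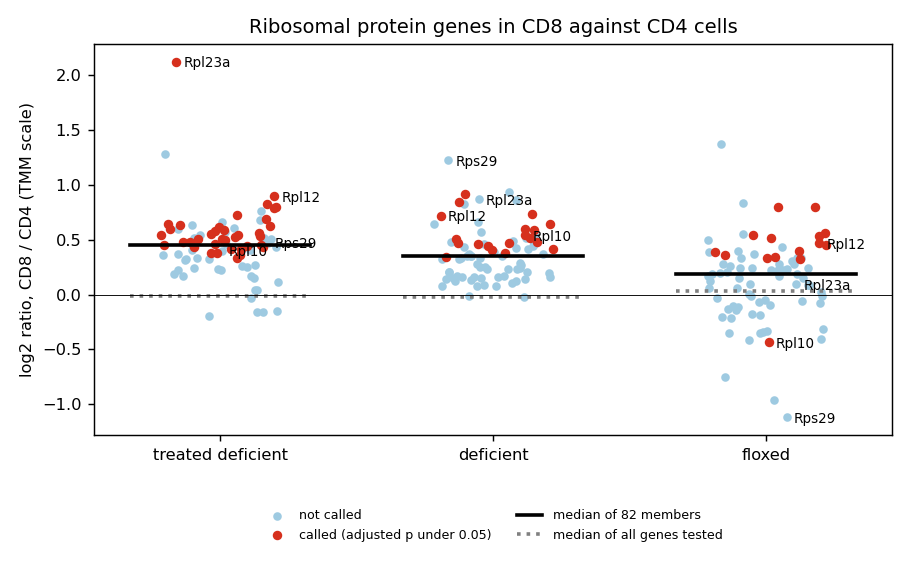
Log2 ratio of CD8 to CD4 cells on the TMM scale (vertical) for the 82 tested members in treated deficient, deficient and floxed mice. Points are members, red where called at an adjusted p under 0.05, solid lines the members' median (0.45, 0.35 and 0.19) and dotted lines the median of all genes tested. Rpl12 is above 0 in each state and Rpl10 is below 0 in floxed mice.

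Paralogs within the set are given beside their partners for the CD8 deletion. Rpl22, which the development of alpha beta T cells requires in mice, stood at 335, 319 and 278 CPM in deficient and 201, 272 and 257 CPM in floxed CD8 libraries (0.35 ± 0.14, adjusted p = 0.0791). Its paralog Rpl22l1, which Rpl22 represses in mice, was at 110, 89.9 and 93.8 CPM in deficient and 49.2, 75.7 and 65.0 CPM in floxed CD8 libraries (0.63 ± 0.15, adjusted p = 0.00499, edgeR). No difference between paralogs was tested. Rps27l, which p53 induces, was at 0.08 ± 0.20 and was not called, and its partner Rps27 rose by 0.62 ± 0.15. Rpl7l1 was at -0.06 ± 0.14 beside 0.12 ± 0.13 for Rpl7, and Rpl36al at 0.22 ± 0.19 beside 1.01 ± 0.45 for Rpl36a. None of these was called, and Rpl36a (adjusted p = 0.125, edgeR) had 685 counts in all. Rpl39 rose by 0.55 ± 0.17, and Rpl39l, a paralog of germ cells, had 269 counts in all. Rps19bp1 was at 0.23 ± 0.27 and was not called in any of the 4 deletion and blockade comparisons.

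Genes that build ribosomes gave few calls in the deletion. Over all genes 9.65% were called higher and 9.61% lower in the CD8 deletion, and 4.61 and 7.06% in the CD4 deletion. Of 77 ribosome biogenesis genes, 0 rose and 2 fell in the CD8 deletion, with a median of -0.05, and 2 rose and 1 fell in the CD4 deletion, with a median of 0.07. The 2 falls in CD8 cells were Tcof1 (-0.68 ± 0.20), which promotes ribosomal RNA transcription, and Nol10 (-0.61 ± 0.21), a nucleolar processing factor. Of 14 genes of RNA polymerase I and its factors, 0 were called in any deletion or blockade comparison. With blockade 13.8% of all genes were called in CD8 and 0.142% in CD4 cells. Of 77 mitochondrial ribosomal protein genes, 1 rose and 3 fell in the CD8 deletion (median -0.10), and 0 were called in the CD4 deletion. Of 17 translation factors and other genes known for terminal oligopyrimidine starts, Eef1a1, the main elongation factor, rose (0.44 ± 0.13) and Nap1l1, a histone chaperone, was just called lower (-0.44 ± 0.15) in the CD8 deletion. Summed, the 17 genes stood at 11328 ± 631 CPM in deficient and 10614 ± 538 CPM in floxed CD8 cells (SD, n = 3 each). The CD4 sums were 9794 ± 459 CPM in deficient and 8216 ± 128 CPM in floxed cells. Of 10 tested host genes of small nucleolar RNAs, 4 rose in the CD8 deletion with a median of 0.38, among them Epb41l4aos (0.98 ± 0.23), Snhg8 (0.65 ± 0.17) and Zfas1 (0.63 ± 0.16). Rack1, a scaffold on the small subunit, was at 0.28 ± 0.11 and was not called. The 3 ribosome components outside the rule summed to 2917 ± 268 CPM in deficient and 2412 ± 327 CPM in floxed CD8 cells. In CD4 cells they summed to 2443 ± 106 CPM in deficient and 2078 ± 135 CPM in floxed mice.

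Regulators gave few calls, on a list too short to set apart from the share over all genes. Larp1 averaged 173 ± 22.2 CPM in deficient and 241 ± 98.0 CPM in floxed CD8 cells (-0.48 ± 0.22, adjusted p = 0.136). Myc, which drives ribosome production, averaged 48.6 ± 7.32 CPM in deficient and 58.8 ± 34.8 CPM in floxed CD8 cells (-0.27 ± 0.26, adjusted p = 0.524). In both genes floxed CD8 replicate 1 was highest, at 350.4 CPM for Larp1 and 98.9 CPM for Myc. Of 14 regulators of the mTORC1 and Myc list, 1 rose in the CD8 deletion, where 9.65% of all genes did. It was Eif4ebp1 (0.97 ± 0.30), a translation repressor that mTORC1 inactivates. Between cell types, 53 of 77 biogenesis genes were higher in CD8 cells and 0 lower in treated deficient mice, beside 9.36% of all genes higher. In deficient mice 42 were higher and 0 lower, beside 6.21% higher, and in floxed mice 59 and 0, beside 18.9%. The medians were 0.67, 0.61 and 0.70 in treated deficient, deficient and floxed mice.

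Markers of other cells and states moved with these groups. The 8 melanoma markers summed to 2441 ± 958 CPM in deficient and 166 ± 21.4 CPM in floxed CD8 cells, and to 3193 ± 1254 CPM in deficient and 320.5 ± 269.97 CPM in floxed CD4 cells (SD, n = 3 each). With blockade they summed to 824 ± 718 CPM in CD8 and 986 ± 817 CPM in CD4 cells. All 8 rose in the CD8 deletion and 6 in the CD4 deletion, where 9.65 and 4.61% of all genes were called higher. The 12 macrophage markers summed to 2001 ± 689 CPM in deficient and 1048 ± 714 CPM in floxed CD8 cells, but to 3859 ± 827 CPM in deficient and 17237 ± 6782 CPM in floxed CD4 cells. The 7 markers of naive and memory T cells summed to 1961 ± 351 CPM in deficient and 468 ± 210 CPM in floxed CD8 cells, and to 559 ± 32.99 CPM in treated deficient ones. In CD4 cells they summed to 785 ± 148, 1395 ± 264 and 904 ± 181 CPM in treated deficient, deficient and floxed mice. The 6 cycling markers summed to 3253 ± 116 CPM in treated deficient, 1803 ± 84.2 CPM in deficient and 3632 ± 226 CPM in floxed CD8 cells. Their sums in CD4 cells were 2137 ± 126 CPM in treated deficient, 1581 ± 89.2 CPM in deficient and 1321 ± 397 CPM in floxed mice. In CD8 cells the melanoma and naive sums had the same order over the 3 group means as the share of counts on the members. In CD4 cells the melanoma sum did. The order was not particular to these lists. Sums of B and plasma, erythroid and neutrophil markers, at CD8 means of at most 8.15 CPM, had it in CD8 cells too. B and plasma markers also had it in CD4 cells. The cycling sum had the reverse order in CD8 cells and neither order in CD4 cells. The CD4 order depends on the measure, as shares of treated deficient and floxed CD4 libraries overlapped. The members' median was -0.11 in treated deficient against floxed CD4 cells, with 56 of 82 members below 0. By the medians the CD4 order was deficient, floxed, treated deficient, which is the order of the CD4 naive sum. The part of these cells and states in the result was not tested.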

How the data were processed

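RNA of sorted T cells was counted per gene in 18 libraries. The deposited values are raw read counts, 1 file per library, made by the authors by featureCounts 1.5.1, run with strand setting 2 and the Ensembl 87 annotation, per the file headers. STAR, featureCounts, DESeq2 and the GRCm38 build are named in the submitters' processing notes. A single model over the 18 libraries was fitted in R 4.3.3 by edgeR 4.0.16 (filterByExpr with a minimum count of 10, TMM scaling, robust quasi-likelihood fit, 12 residual degrees of freedom, 14080 genes tested, common coefficient of variation 0.229). Scripts were tested on simulated data. DESeq2 1.42.0 and limma 3.58.1 (voom) were alternatives, beside other scalings and filters, the replicate number as a block, and leaving out libraries. Of 49671 IDs, 49412 matched GENCODE M21, which gave symbols. Shared sequence was measured as 50-base windows found in another gene's transcripts. Members named are the largest called changes, the departing, closest and farthest members, stalk and 5S genes, paralogs and the extremes of level. Replicates are pools of tumors, so p-values measure the spread between pools. For contrasts between CD8 and CD4 cells this holds only if their libraries come from separate tumors, which the labels do not state. Some members are not reported here by name. The members and all lists were chosen with earlier results of these data known.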

Additional observations from a re-analysis of the deposited data

Results flagged for a closer look

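The deletion effect on Rpl10 was larger in CD8 than in CD4 cells by 0.97 ± 0.20 on the log2 scale (edgeR quasi-likelihood adjusted p = 0.00234): all 3 deficient libraries stood above all floxed ones in CD8 cells and below them in CD4 cells. The same difference for Rps29 was 2.35 ± 0.75 (adjusted p = 0.0451), on 7 to 42 counts per library in the 4 groups, and 51.2% of the summed counts of Rps29 and the gene models that share its sequence lay on those models. Rpl10 was called in all 23 alternatives run and Rps29 in 8 of 23. Both were picked up because the deletion effect itself differed between the cell types in the interaction contrast, which takes CD8 and CD4 libraries as independent.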

How the results depend on the processing

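The median change of the members kept its sign in all alternatives run, 17 per comparison and 23 for each difference between cell types. Of 234 alternative values of called counts, departing counts and shares, 67 moved beyond a set margin and 167 stayed within it. Leaving out 1 library gave 11 to 27 calls for the CD8 deletion (25 with all), 1 to 5 for the CD4 deletion (5), 0 to 3 for CD8 blockade (4), 1 to 8 for treated deficient against floxed CD8 cells (3) and 1 to 3 for CD4 cells (2). For CD8 against CD4 it gave 22 to 32 in treated deficient (37), 6 to 20 in deficient (19) and 8 to 24 in floxed mice (15), and 1 to 3 for the difference between deletion effects (2). Upper quartile scaling gave 12 calls in the CD4 deletion. It moved the median of all genes there to 0.10, and all called genes to 949 higher and 804 lower, against 649 and 994 with TMM. It gave 1672 and 1035 against 1359 and 1353 in the CD8 deletion, 909 and 942 against 1162 and 779 in CD8 blockade, and 948 and 991 against 575 and 1137 in treated deficient against floxed CD4 cells. With no filter the CD4 deletion, treated deficient against floxed CD4 cells and the difference between deletion effects had 1 call each. DESeq2 gave 8 calls in CD8 blockade, 4 in treated deficient against floxed CD4 cells and 31 for CD8 against CD4 in deficient mice. Fits of the compared groups or cell type alone gave 3 in the CD4 deletion, 1 in treated deficient against floxed CD8 cells, 3 and 34 for CD8 against CD4 in floxed and deficient mice, and 1 for the difference between deletion effects. Without the 2 libraries over 5% ribosomal RNA-like, the CD4 deletion, CD8 blockade, treated deficient against floxed CD8 cells and the difference between deletion effects had 1 call each, and CD8 against CD4 in treated deficient mice had 22. Leaving out floxed CD8 replicate 1 as well, a setting chosen after seeing the data, gave 16 and 1 calls for the CD8 and CD4 deletions, 2 in CD8 blockade, 1 in treated deficient against floxed CD8 cells and 3 in CD4 cells, 24, 28 and 32 for CD8 against CD4 in floxed, deficient and treated deficient mice, and 1 for the difference between deletion effects. The causes were not tested. Departures counted on the TMM scale were 1 in each deletion, 2 and 1 in treated deficient against floxed CD8 and CD4 cells, 3 and 1 for CD8 against CD4 in floxed and deficient mice, and 2 for the difference between deletion effects. With all counts as denominator the share on the members was 1.95% in treated deficient CD8 cells, against 2.15%. Replicate numbers are shared by the groups, and deviations of same-numbered libraries correlated at 0.29 at most over 45 pairs, with a median of 0.01. In 9 pairs the correlation was over 0.1, and 9 of 18 libraries had their best match in another group at the same number. Library totals had the same order by replicate number in CD8 and CD4 cells of each state. The 45 pairs were not split by state, so this does not settle whether CD8 and CD4 libraries pair. With the replicate number as a block, 22 and 5 members were called for the CD8 and CD4 deletions, 4 in CD8 blockade and 1 for the difference between deletion effects. Depth limits members with few counts: 14 of the 85 had under 1000 counts over 18 libraries.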
